A study of Mus musculus with 3 samples.

Results

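Gpnmb and Lpl positive cells are a minority of the Ly6Chi monocytes that were sorted from mouse liver 24 h after an overdose of acetaminophen. They were chosen by their own transcript counts: at least 1 unique molecular identifier (UMI, a tag that marks a transcript molecule) of Gpnmb, at least 2 UMIs of Lpl, fewer than 5 Arg1 UMIs per 10000, fewer than 15 UMIs per 10000 of H2-Aa, H2-Ab1 and H2-Eb1 together, and at most 2 of the 6 patrolling monocyte genes Ace, Adgre4, Spn, Treml4, Ear2 and Ceacam1. Of 16021 cells that had 500 or more detected genes and at most 10% mitochondrial UMIs, 901 met the rule. They comprised 107 of 4457 cells in knockout 4, 431 of 4115 in control 1 and 363 of 7449 in the library labelled control 3.

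There were 3 droplet single-cell libraries, made from transcript 3′ ends. Knockout 4 came from LysMDCommd10 mice, in which Cre expressed from the LysM locus (the gene Lyz2) deletes Commd10 in myeloid cells, including neutrophils and macrophages beside monocytes. Control 1 and the library labelled control 3 came from Commd10fl/fl mice, which carry the floxed gene and, by their label, no Cre. All groups were male C57BL/6 mice aged 8 weeks that were fasted for 12 h and given 300 mg/kg acetaminophen into the peritoneum, with chow returned 2 h later. The labels do not say how many mice a library held, and the p-values cover the spread among libraries alone, which may be technical. The comparison asked what loss of COMMD10, a protein of endosomal sorting, changes in monocytes of the injured liver.

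After acetaminophen injury, Ly6Chi monocytes enter the liver from the blood and differentiate into macrophages that take up dead cells. Gpnmb encodes a glycoprotein of late endosomes and lysosomes that is a known target of the transcription factor MITF. Lpl encodes lipoprotein lipase, which releases fatty acids from triglyceride-rich lipoproteins. Both belong to the signature known as lipid-associated or scar-associated macrophages, together with Spp1, Cd9, Trem2 and Fabp5. In the GENCODE M21 annotation of build GRCm38, Gpnmb lies on the plus strand of chromosome 6 from 49036546 to 49070929 and Lpl on the plus strand of chromosome 8 from 68880491 to 68907448.

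The genotype labels were checked first. UMIs assigned to a cre transcript in the deposited tables numbered 11 in knockout 4, 0 in control 1 and 47 in the library labelled control 3, the last in 47 separate barcodes. A count of 0 allows up to 0.0748 cre CPM in control 1, taking 3 UMIs as the floor. Commd10 in all barcodes was at 8.32 CPM (UMIs of a gene divided by all UMIs of the cells summed, times 1e6) in knockout 4, against 17.5 in control 1 and 10.2 in the library labelled control 3. The presence of cre goes against the label of control 3. If that label is wrong, the spread between the control libraries, on which the p-values rest in part, may include a difference of genotype. Fold changes over both control libraries may then mix genotypes as well. The main genes and lists of the genotype comparison are therefore also given against control 1 alone. Since only 3′ ends were sequenced, UMIs from a recombined Commd10 allele may still be counted. Members held 828595 UMIs in knockout 4, 4357289 in control 1 and 3934528 in the library labelled control 3, with a median of 8036, 10049 and 10018 UMIs per cell in the same order. Libraries shared between 8 and 26 barcodes, and 2 members had a barcode found in another library.

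Gpnmb and Lpl positive cells made up 2.40% of knockout 4 (exact Clopper-Pearson 95% interval 1.97 to 2.89%), against 10.5% of control 1 (9.55 to 11.4%) and 4.87% of the library labelled control 3 (4.40 to 5.39%). The knockout share was below both, 4.36-fold lower than control 1 and 2.03-fold lower than the library labelled control 3. The 3 intervals, which cover counting error only, did not overlap. The difference from the mean control share of 7.67 ± 3.96% (SD, n = 2 libraries) was -5.27 percentage points. With 1 library against 2, the smallest one-sided p an exact permutation allows is 0.333, so no test was made. After each cell was thinned to 4000 UMIs, which removes depth differences between cells, the shares were 1.72% in knockout 4, 7.91% in control 1 and 3.49% in the library labelled control 3.

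**Figure D1:**
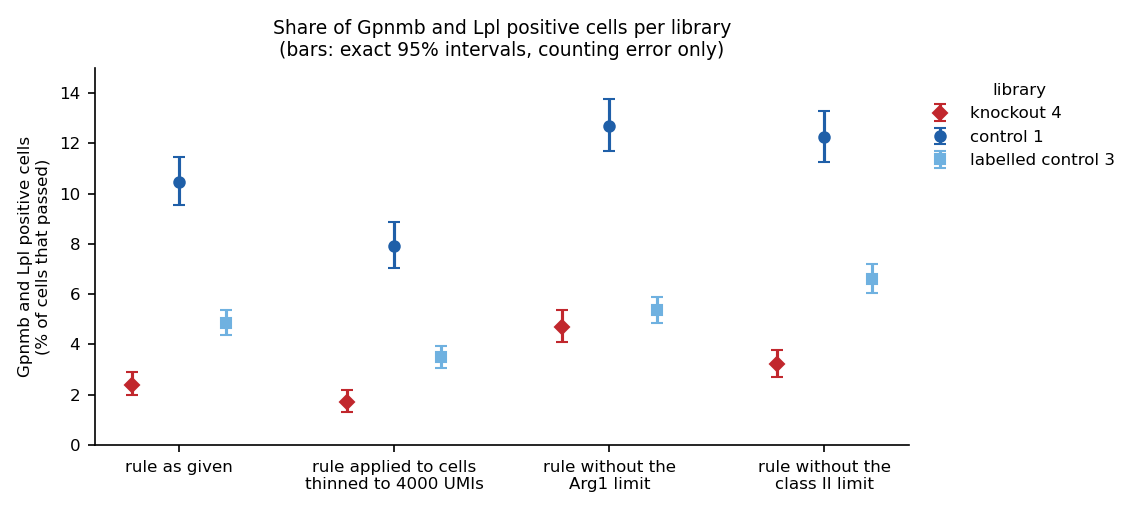
Share of cells that met the rule in each library, in % of cells that passed the quality limits, for the rule as given and for 3 changes to it; bars are exact 95% intervals that cover counting error only. Knockout 4 was lowest under each, at 2.40% with the rule as given, and the interval of the library labelled control 3 reached that of knockout 4 when the Arg1 limit was dropped.

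The share depended on which of the rule's genes set it. Cells with at least 1 Gpnmb UMI were 23.0% of knockout 4, 33.2% of control 1 and 31.1% of the library labelled control 3, whereas cells with at least 2 Lpl UMIs were 17.97%, 49.6% and 25.5% in the same order. Both conditions together were met by 6.55% of knockout 4, 22.8% of control 1 and 12.4% of the library labelled control 3. The 3 upper limits then removed different cells. The Arg1 limit was the sole limit exceeded by 35.3% of the cells that met both conditions in knockout 4, against 9.80% in control 1 and 3.89% in the library labelled control 3. The patrolling limit alone removed 6.51% in knockout 4, against 24.5% in control 1 and 29.4% in the library labelled control 3. More than 1 limit was exceeded by 9.25%, 12.0% and 13.6% in the same order. Without the Arg1 limit the share was 4.71% in knockout 4, 12.7% in control 1 and 5.36% in the library labelled control 3, so that the last was 1.14-fold above knockout 4. Since Arg1 and Lpl themselves differed between libraries, the smaller share is a description of this rule and cannot be told apart from a change in these genes.

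The label of these cells as macrophages was borne out in part. The 8 macrophage markers (Adgre1, Csf1r, C1qa, C1qb, C1qc, Mrc1, Apoe and Mertk) summed to 9543 CPM in members and 5308 CPM in other cells of knockout 4, to 7717 and 5332 in control 1, and to 10353 and 6589 in the library labelled control 3. Mertk, a receptor for dead cells, was at 61.5 CPM in members and 25.04 in other cells of knockout 4, at 47.3 and 28.1 in control 1, and at 47.5 and 20.6 in the library labelled control 3. The 7 markers of Ly6Chi monocytes were lower but far from absent, at 4327 CPM in members and 7920 in other cells of knockout 4, 3763 and 6276 in control 1, and 5609 and 9086 in the library labelled control 3. Csf1r, the growth factor receptor of the lineage, stood at 602, 586 and 599 CPM in members, against 570, 663 and 618 in other cells. As a group, members thus carried both monocyte and macrophage markers, and are called Gpnmb and Lpl positive cells here. "Other cells" are all remaining cells that passed, less those with 3 or more T cell or B cell markers.

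Markers of other cell types were low. Of the 5 Kupffer cell markers, Timd4 was at 0 in members of all 3 libraries, and the list summed to 9.65 CPM in knockout 4, 6.20 in control 1 and 3.81 in the library labelled control 3. T cell markers summed to 1.27 CPM at most, NK cell markers to 4.83, B cell markers to 9.64 and dendritic cell markers to 3.30, and mast cell markers were at 0. Stellate cell markers summed to 0 CPM in knockout 4, 0.23 in control 1 and 25.2 in the library labelled control 3. Endothelial markers summed to 21.7, 11.7 and 7.62 CPM, and erythroid markers to 6.03, 0.92 and 1.52 CPM, in the same order. The 8 neutrophil markers summed to 456 CPM in knockout 4, 288 in control 1 and 298 in the library labelled control 3, with Ly6g and Retnlg at 0 in each. Hepatocyte markers summed to 156, 120 and 211 CPM in members and 176, 131 and 240 CPM in other cells in the same order of libraries. In control 1, 1 member held 5139 of the 5193 immunoglobulin UMIs of the members.

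Cd63, Spp1, Igf1, Hpgds, Ccl7 and Ccl2 were among the genes that stood highest in Gpnmb and Lpl positive cells over other cells. Several of them were as high or higher in the neighbours left out by a single limit, described below. Because the cells were chosen on their own transcripts, these ratios are a description with no test. As a background, 20.7% of 13862 genes were above other cells in all 3 libraries and 27.3% were below, and the median log2 ratio over all genes was -0.03. Of the 22 further genes in the lipid-associated macrophage list, 20 were above other cells in every library and 1 was below, with a median log2 ratio of 0.83. Of the 40 lysosomal genes, 31 were above in every library and 2 below, with a median of 0.33. The list of Ly6Chi monocyte identity genes had 0 of 18 above and 12 below, with a median of -0.39.

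**Figure D2:**
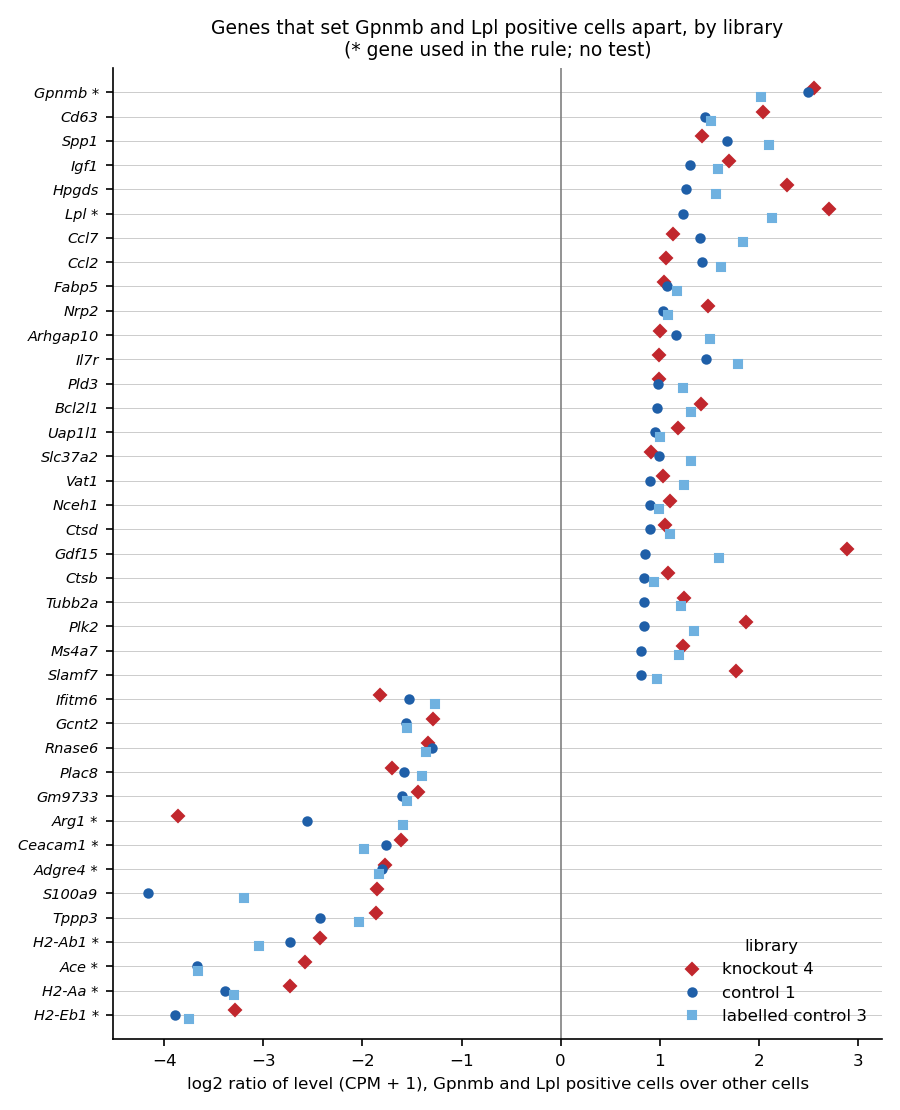
log2 ratio of level (CPM + 1) in Gpnmb and Lpl positive cells over other cells, 1 symbol per library, for the 25 genes highest and all but 1 of the 15 lowest by their least extreme library; asterisks mark genes of the rule. Spp1 lay between 1.43 and 2.10 and Cd63 between 1.46 and 2.04 over the 3 libraries.

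Among secreted and surface products, Spp1 (osteopontin, a matrix protein and cytokine) was at 2842 CPM in members and 1055 in other cells of knockout 4, at 1749 and 547 in control 1, and at 1388 and 323 in the library labelled control 3. It was thus higher in members in every library, and the other cells of knockout 4 had more of it than those of either control library. Cd63, a tetraspanin of late endosomes and lysosomes, was at 891 CPM in members and 215 in other cells of knockout 4, 535 and 194 in control 1, and 376 and 131 in the library labelled control 3. Igf1, a growth factor made by reparative macrophages, was at 54.3 and 16.0 CPM, 81.5 and 32.5 CPM, and 56.9 and 18.2 CPM in the same order. The monocyte-attracting chemokine Ccl2 reached 2023 CPM in members and 970 in other cells of knockout 4, 1552 and 576 in control 1, and 1324 and 430 in the library labelled control 3. Ccl7, which acts on the same receptor, showed log2 ratios of 1.13 to 1.84 over the 3 libraries, although the receptor's own gene Ccr2 was lower in members, at -0.69 to -0.39.

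Lipid genes were not uniformly higher. Fabp5, an intracellular carrier of fatty acids, was at 1278 CPM in members and 619 in other cells of knockout 4, at 1020 and 483 in control 1, and at 1045 and 463 in the library labelled control 3. The scavenger receptor Cd36 (log2 ratios 0.60 to 1.68), the droplet coat gene Plin2 (0.37 to 0.78) and the lysosomal lipase gene Lipa (0.59 to 1.47) were higher as well. In contrast, the triglyceride synthesis gene Dgat2 (-1.67 to -1.16) and the lipase inhibitor gene G0s2 (-3.16 to -2.13) were lower in every library. Over the list of 27 genes of lipid uptake, droplets and fatty acid use, 11 were above and 9 below other cells in all libraries, with a median of 0.00. Genes of cholesterol export were above in 8 and below in 3 of 15, among them the transporter genes Abca1 (0.40 to 0.89) and Abcg1 (0.34 to 0.83).

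Lysosomal proteases stood among the 25 leading genes, at levels shared with the neighbours left out for Arg1 alone, as given below. Ctsd, the aspartic protease cathepsin D, was at 4482 CPM in members and 2154 in other cells of knockout 4, 3558 and 1908 in control 1, and 3546 and 1648 in the library labelled control 3. Ctsb, the cysteine protease cathepsin B, gave log2 ratios of 0.84 to 1.08. Ctsl (0.44 to 0.70), Grn (0.62 to 0.80) and Cd68 (0.59 to 0.78) were higher too, whereas Lamp2 (-0.13 to -0.06) and the mannosidase gene Man2b1 (-0.27 to -0.18) were the 2 lower members of the list. Mitf was higher in each library (0.41 to 0.83), and the related genes Tfe3 (-0.44 to -0.14) and Tfeb (-0.20 to -0.14) were lower.

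Promoters are shown because MITF and TFE factors are known to bind CATGTG and CACGTG, and Gpnmb and lysosomal genes are known targets. The sequences are RefSeq promoters of GRCm38.p6, from 250 bases before to 50 after the gene's start, written 5′ to 3′ on the gene's strand with either motif in capitals. Gpnmb covers chr6:49036268-49036567 on the plus strand, Ctsd chr7:142387778-142388077 on the minus strand and Hpgds, the prostaglandin D synthase gene among the leading genes, chr6:65144681-65144980 on the minus strand.
Gpnmb: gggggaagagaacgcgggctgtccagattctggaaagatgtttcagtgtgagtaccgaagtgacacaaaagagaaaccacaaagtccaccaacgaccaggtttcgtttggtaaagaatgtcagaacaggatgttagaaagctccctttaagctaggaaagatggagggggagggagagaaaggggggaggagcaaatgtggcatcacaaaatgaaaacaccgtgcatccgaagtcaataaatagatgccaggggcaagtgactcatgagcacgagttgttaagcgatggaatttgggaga
Ctsd: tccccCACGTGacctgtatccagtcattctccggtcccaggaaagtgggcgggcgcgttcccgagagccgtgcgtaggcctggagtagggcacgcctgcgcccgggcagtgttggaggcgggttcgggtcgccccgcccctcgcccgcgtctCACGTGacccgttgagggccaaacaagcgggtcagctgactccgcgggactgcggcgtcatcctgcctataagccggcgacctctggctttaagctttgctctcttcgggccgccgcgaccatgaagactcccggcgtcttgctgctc
Hpgds: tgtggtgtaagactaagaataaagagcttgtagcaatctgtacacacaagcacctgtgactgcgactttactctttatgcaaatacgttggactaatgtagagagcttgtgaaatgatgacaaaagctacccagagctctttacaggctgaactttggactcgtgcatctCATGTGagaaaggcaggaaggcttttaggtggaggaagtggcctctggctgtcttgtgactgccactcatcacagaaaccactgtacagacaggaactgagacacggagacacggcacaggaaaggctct
CACGTG starts 245 and 98 bases before the start of Ctsd, CATGTG starts 80 bases before that of Hpgds, and neither motif is in this window of Gpnmb. Searched on both strands, 1 of these motifs or both stood in 22.7% of the 27025 genes with a promoter in the table. They stood in 7 of the 18 leading higher genes that had one (38.9%), in 3 of 10 leading lower genes (30%) and in 15 of 28 lysosomal genes (53.6%). A match is a description of letters and not a bound site.

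Genes of dead cell uptake were above other cells in every library for 13 of 21 and below for 5. The complement genes C1qa and C1qb, whose products bridge dead cells to phagocytes, had log2 ratios of 0.62 to 1.20 and 0.49 to 1.20, and the bridging ligand gene Gas6 had 1.23 to 2.71. For heme and iron, 11 of 19 genes were above and 4 below. Fth1, the ferritin heavy chain, was higher by 0.58 to 0.80, and the heme transporter gene Slc48a1 by 0.59 to 0.98. Gdf15, a cytokine induced by cell stress, was at 112 CPM in members and 14.3 in other cells of knockout 4, 64.0 and 35.0 in control 1, and 95.3 and 30.8 in the library labelled control 3.

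Among genes lower in members that the rule did not use, Plac8 marks newly arrived monocytes. It was at 648 CPM in members and 2106 in other cells of knockout 4, 651 and 1947 in control 1, and 975 and 2568 in the library labelled control 3. The alarmin gene S100a9 was at 65.2 CPM in members and 238 in other cells of knockout 4, 3.90 and 86.7 CPM in control 1, and 3.56 and 40.7 CPM in the library labelled control 3. Alarmin and neutrophil-like genes were below other cells in all libraries for 10 of 13, immediate-early genes for 13 of 24, NF-kB targets for 11 of 24 and glycolysis and hypoxia genes for 11 of 32. Type I interferon response genes were above for 8 and below for 5 of 29, and cell cycle genes above for 2 and below for 7 of 20.

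Among the other lists, NRF2 and antioxidant genes were above other cells in every library for 8 and below for 7 of 21, and repair and growth factor genes for 9 and 9 of 28. Chemokines and their receptors were above for 11 and below for 4 of 25, and macrophage maturation genes for 11 and 3 of 20. Complement genes were above for 7 and below for 4 of 17, regulators of MITF and TFE factors for 6 and 2 of 13. Genes of the COMMD, CCC and retriever complexes, which sort endosomal cargo and include COMMD10, were above for 10 and below for 2 of 15, with a median of 0.21.

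The cells varied widely among themselves. After thinning to 4000 UMIs, 89 members of knockout 4, 365 of control 1 and 334 of the library labelled control 3 remained. Ctsd was spread over most cells: the 10% of cells with most UMIs held 22.9% of them in knockout 4, 21.2% in control 1 and 20.7% in the library labelled control 3. Spp1 was concentrated, with 64.3%, 69.3% and 72.1% in the top 10% and a median of 2, 0 and 0 UMIs per cell. Pf4, a chemokine gene also known from platelets, was held to 75.0%, 79.4% and 77.6% by the top 10%, and C1qb to 59.9%, 62.1% and 57.0%. Among these 4 genes, Ctsd was thus the one shared most evenly between members in each library.

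**Figure D3:**
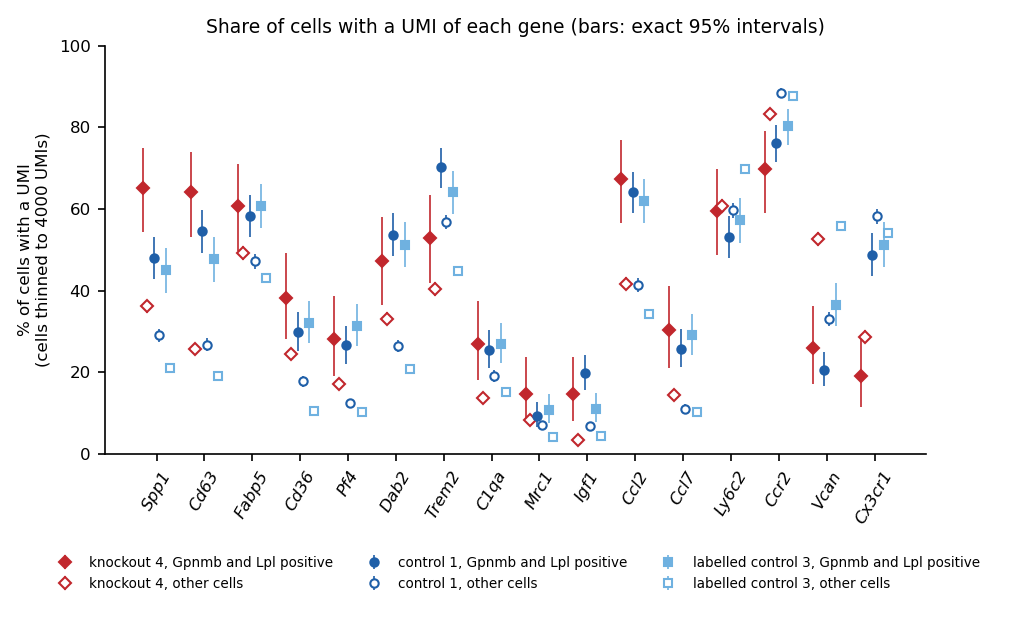
Share of cells with a UMI of each gene, in % of cells thinned to 4000 UMIs; filled symbols are Gpnmb and Lpl positive cells, open symbols other cells, and bars exact 95% intervals. Igf1 was detected in 14.6% of members and 3.30% of other cells of knockout 4. In control 1, lymphocyte-gated cells, which are not drawn, held Spp1 in 7 of 12, Cd63 in 8 of 12 and Ccr2 in 8 of 12. These gated cells also carried macrophage markers and may not measure free RNA alone. The shares of these genes in that library are therefore read neither as detection beyond background nor as background.

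At equal depth, Spp1 was detected in 65.2% of members and 36.1% of other cells of knockout 4, in 47.9% and 29.1% in control 1, and in 44.9% and 21.1% in the library labelled control 3 (73.8% and 46.2%, 58.2% and 42.2%, and 58.4% and 30.7% unthinned). As a level for free RNA, 0 of 4 lymphocyte-gated cells of knockout 4, 7 of 12 of control 1 (58.3%) and 1 of 11 of the library labelled control 3 (9.09%) held an Spp1 UMI, with a median of 2634, 3345 and 2843 UMIs per gated cell before thinning. In control 1 the members' share was not above that of gated cells. Those gated cells also carried macrophage markers, which summed to 4539 CPM. The Spp1 share in control 1 is therefore read neither as detection beyond background nor as background. Igf1 was detected in 14.6% of members and 3.30% of other cells of knockout 4, 19.7% and 6.94% in control 1, and 11.1% and 4.33% in the library labelled control 3 (18.7% and 5.19%, 27.4% and 12.3%, and 24.0% and 7.99% unthinned). Lymphocyte-gated cells held Igf1 in 0 of 4, 1 of 12 and 0 of 11.

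C1qa and Pf4 were detected in the same cells more often than the product of their separate shares, at 11.2% of members of knockout 4, 9.86% of control 1 and 13.5% of the library labelled control 3, against products of 7.57%, 6.77% and 8.47%. Lymphocyte-gated cells held C1qa in 0 of 4, 0 of 12 and 1 of 11, and Pf4 in 0 of 4, 1 of 12 and 0 of 11. These shares are a description with no test.

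Cells next to each limit were set side by side. With exactly 2 Lpl UMIs (inside) there were 15 cells in knockout 4, 44 in control 1 and 63 in the library labelled control 3, with Spp1 at 3207, 302 and 986 CPM. With 1 Lpl UMI (outside) there were 47, 81 and 142 cells, with Spp1 at 1339, 560 and 821 CPM. With exactly 1 Gpnmb UMI (inside) there were 23, 94 and 84 cells, with Cd63 at 991, 354 and 218 CPM, and with none (outside) 157, 433 and 391 cells, with Cd63 at 204, 203 and 164 CPM. Spp1 thus had no common order across the Lpl limit, whereas Cd63 was higher inside the Gpnmb limit in each library. Just inside and outside the patrolling limit (2 and 3 markers), Spp1 was at 1077 and 725 CPM in knockout 4, 625 and 958 in control 1, and 738 and 407 in the library labelled control 3. Just inside and outside the Arg1 limit (2 to 5 and 5 to 8 per 10000), it was at 2329 and 2781 CPM in knockout 4, 2347 and 3179 in control 1, and 2507 and 793 in the library labelled control 3, the last from 6 cells outside. The class II limit had 4 and 2 cells on its sides in knockout 4, too few to set side by side, and 13 and 9 in control 1 and 11 and 11 in the library labelled control 3.

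Gpnmb and Lpl positive cells left out for Arg1 alone resembled the members and had more Spp1 and Pf4. Spp1 was at 5072 CPM in these neighbours of knockout 4, 3897 in control 1 and 1943 in the library labelled control 3, and Pf4 at 2175, 654 and 932 CPM, against 350, 325 and 387 CPM in members. Ccl7 was higher in them too, at 1454, 826 and 988 CPM, against 723, 469 and 497 CPM in members. Ccl2, Cd63, Igf1, Fabp5 and Ctsd had no common order between the 2 groups. Ctsd was at 4656, 3495 and 3754 CPM in these neighbours, against 4482, 3558 and 3546 CPM in members. Ctsb was slightly higher in these neighbours, at 5310, 4601 and 3892 CPM, against 5285, 4123 and 3869 CPM in members. Hpgds was lower in these neighbours, at 26.9, 37.9 and 20.9 CPM, against 65.2, 50.3 and 49.6 CPM in members. Neighbours left out for class II alone had more C1qb, at 1874, 1326 and 1282 CPM, against 1038, 673 and 788 CPM in members. Their Cd63, Igf1, Hpgds and Ccl7 had no common order beside members, and their Ccl2 was lower in each library. Neighbours left out for patrolling markers alone had less Spp1, at 377, 687 and 343 CPM. These values follow the same order of libraries and are a description, as the rule drew the borders.

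Within Gpnmb and Lpl positive cells, UMIs were summed per library and knockout 4 was compared with control 1 and the library labelled control 3 by edgeR's quasi-likelihood test. The knockout members had more transcripts of Spp1, Cd9 and Cd63 of the lipid-associated signature, of heme oxygenase and ferritin, of the interleukin-1 antagonist, of 7 chemokine genes and of 6 glycolysis and hypoxia genes. They had fewer transcripts of Lsp1, Cx3cr1 and Lyz2, and of 3 of 23 immediate-early genes. Among the 7 chemokine genes, Cxcl10 and Ppbp had most of their knockout UMIs in 1 cell, as given below. Of 10347 genes tested, 69 were called higher (0.667%) and 36 lower (0.348%) at an adjusted p of 0.05, and 919 had an unadjusted p under 0.05. These counts include 1 gene of the rule, whose call is a description only. All 69 were above and all 36 below both control libraries, as were 35.5% and 42.5% of all genes tested. Against control 1 alone, all 69 kept their direction by at least 0.40 log2 units and all 36 by at least 0.51. The test chose these genes on the same libraries, so neither their position nor their direction is separate support. DESeq2 called 2 higher (S100a9 and Cxcl3) and 1 lower (Lsp1), and 6 genes (Il1rn, Spp1, Lsp1, Cd274, Rps29 and Cx3cr1) were called in all 12 other edgeR settings. The 105 calls were less stable as a whole: a gene was called in a median of 6 of 13 other settings, and without the 2 members whose barcode another library held, 26 genes were called higher and 7 lower.

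**Figure D4:**
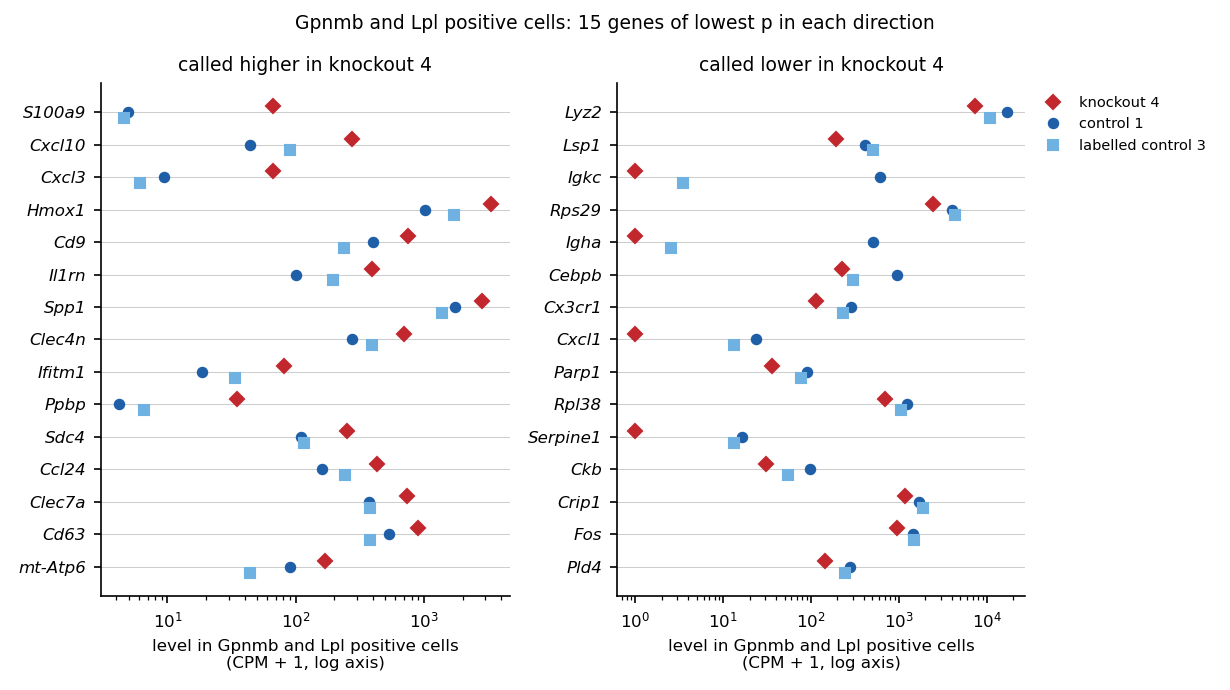
Level in Gpnmb and Lpl positive cells (CPM + 1, log axis) in each library, for the 15 genes of lowest p called higher (left) and lower (right) in knockout 4. Knockout 4 stood outside both other libraries for each gene, and Igkc and Igha came almost wholly from 1 cell of control 1.

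Il1rn encodes the receptor antagonist that blocks interleukin-1 and lies on the plus strand of chromosome 2 from 24336853 to 24351494. It was at 392 CPM in knockout 4, against 100.1 in control 1 and 194 in the library labelled control 3. The log2 fold change was 1.43 ± 0.20 (SE) with an adjusted p of 4.26e-07 by edgeR's test. It was 1.99 against control 1 alone and 1.04 without control 1. The library labelled control 3 stood 0.96 log2 units above control 1, and the SE rests on a spread moderated over all genes. DESeq2 did not call Il1rn. Its 325 knockout UMIs came from 65 of the 107 cells, with 27 in the highest. The surrounding list of NF-kB targets and cytokines had no other call among 22 tested genes, with a median log2 fold change of 0.03. Cd274, which encodes the T cell inhibitory ligand PD-L1, was at 73.6 CPM in knockout 4, against 27.5 in control 1 and 25.4 in the library labelled control 3. It rose by 1.49 ± 0.25 (adjusted p = 3.15e-05 by edgeR), and by 1.44 against control 1 alone. DESeq2 did not call Cd274 either (adjusted p = 0.827).

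Of the 22 tested genes of the lipid-associated list that the rule did not use, 6 were called higher and 0 lower, with a median log2 fold change of 0.34 and of 0.32 against control 1 alone, beside -0.02 for all genes tested. Spp1 (chromosome 5, 104435118 to 104441050, plus strand) was at 2842 CPM in knockout 4, against 1749 in control 1 and 1388 in the library labelled control 3, a log2 fold change of 0.87 ± 0.13 (adjusted p = 3.61e-06) and of 0.72 against control 1 alone. Cd9, a tetraspanin of the same signature, was at 751 CPM, against 402 and 238, and rose by 1.25 ± 0.17, or 0.92 against control 1 alone. Cd63 rose by 0.98 ± 0.16 (called in 8 of 13 other settings) and Cd36 by 0.96 ± 0.18 (10 of 13), with 0.75 and 0.97 against control 1 alone. Ctsl (0.74) and the integrin gene Itgax (1.06) completed the calls, with 0.61 and 0.97 against control 1 alone. The members Trem2 (-0.15 ± 0.17), Apoe (0.00 ± 0.12), Fabp5 (0.32 ± 0.14) and Lgals3 (0.23 ± 0.12) did not pass the test. The 2 genes of the rule itself, Gpnmb (0.18 ± 0.16) and Lpl (0.14 ± 0.15), are given as a description, as is Arg1 (0.95 ± 0.22).

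In the lysosome list 2 of 39 genes were called higher, Cd63 and Ctsl, with a median of 0.20 and of 0.18 against control 1 alone, and Ctsd had 0.35 ± 0.12 without passing. Lipid uptake, droplets and fatty acid use had 1 call among 25 (Cd36). Cholesterol export and LXR genes had 0 calls in either direction among 13, with a median of 0.00 and of 0.14 against control 1 alone. Tfec, a relative of MITF, rose by 1.22 ± 0.28 (1.35 against control 1 alone) as the sole call among 12 genes of its list. Dead cell uptake had 1 call among 19 (Cd36), and C1qa, with 478 CPM in knockout 4 against 349 and 352 in control 1 and the library labelled control 3, did not pass (adjusted p = 0.239).

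Heme and iron genes had 3 calls among 18, all higher. Hmox1, which encodes the heme-degrading enzyme, was at 3329 CPM in knockout 4, against 1021 in control 1 and 1730 in the library labelled control 3. It rose by 1.29 ± 0.14 and by 1.72 against control 1 alone, was called in 11 of 13 other settings, and had 381 of its 2758 knockout UMIs in 1 cell. Fth1 rose by 0.59 ± 0.10 (0.81 against control 1 alone) and the iron exporter gene Slc40a1 by 1.16 ± 0.30, or 1.82 against control 1 alone and 0.70 without control 1. Fth1 has near-identical pseudogene copies, as has Cd63, which makes their counts uncertain. The cystine transporter gene Slc7a11 rose by 1.06 ± 0.20 (1.20 against control 1 alone), the sole call among 19 NRF2 and antioxidant genes. The median of that list was 0.02, and 0.15 against control 1 alone. Knockout 4 was thus high for heme oxygenase and ferritin, with 1 call in the antioxidant list.

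Glycolysis and hypoxia genes had 6 calls among 30, all higher, and a median of 0.45 (0.46 against control 1 alone). The glucose transporter gene Slc2a1 was at 85.7 CPM in knockout 4, against 33.7 in control 1 and 49.0 in the library labelled control 3, a rise of 1.07 ± 0.23, or 1.36 against control 1 alone. Bnip3, a mitophagy receptor gene induced by hypoxia, rose by 1.08 ± 0.22 (1.04 against control 1 alone), and the enzyme genes Pgam1 (0.61), Tpi1 (0.61) and Pgk1 (0.56) and the oxidase gene Ero1l (0.87) rose as well. Each of the 6 was called in 3 to 10 of 13 other settings. Ldha (0.30 ± 0.14), Gapdh (0.30 ± 0.13) and Eno1 (0.01 ± 0.17) did not pass. These libraries also differed outside the members in this list's genes: Slc2a1 in other cells was at 143 CPM in knockout 4, against 43.5 in control 1 and 51.7 in the library labelled control 3.

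Chemokines and their receptors had 7 genes called higher and 2 lower among 23, with a median of 0.24 and of 0.31 against control 1 alone. Cxcl10, an interferon-induced chemokine, was at 273 CPM in knockout 4, against 43.4 in control 1 and 88.7 in the library labelled control 3, a log2 fold change of 2.07 ± 0.21, or 2.67 against control 1 alone. Of its 226 knockout UMIs, 136 came from 1 cell and 13 cells held any. Cxcl3, a neutrophil attractant, was at 65.2 CPM, against 8.49 and 5.08, from 54 UMIs in 11 cells. Ppbp, a platelet chemokine gene, had 28 knockout UMIs, 18 of them in 1 cell. The 7 platelet markers include Ppbp itself and summed to 29 UMIs in members of knockout 4, so their sum restates Ppbp. That sum was 35.0 CPM, against 6.66 in control 1 and 7.37 in the library labelled control 3, with 5 of 7 at 0 in knockout 4. A part of platelets in the Ppbp call was not tested. The type I interferon response list had 0 calls by edgeR among 28 genes, with a median of 0.03 and of 0.15 against control 1 alone.

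Further chemokine calls were Ccl24, an eosinophil attractant (432 CPM in knockout 4, against 160 in control 1 and 241 in the library labelled control 3), Ccl6 (0.54 ± 0.14), Ccl7 (0.60 ± 0.15) and Ccl2 (0.51 ± 0.13), the last 3 called in 4 to 6 of 13 other settings. Ccl24 had 358 knockout UMIs in 39 cells, 123 of them in the highest. Cx3cr1, the fractalkine receptor gene on the minus strand of chromosome 9 from 119901616 to 120069879, was at 112 CPM in knockout 4, against 284 in control 1 and 232 in the library labelled control 3. It fell by 1.19 on the log2 scale (SE 0.21), with -1.32 against control 1 alone. At equal depth it was detected in 19.1% of knockout members, against 48.8% of control 1 and 51.2% of the library labelled control 3 (33.6%, 61.0% and 66.4% unthinned). Lymphocyte-gated cells held it in 0 of 4, 6 of 12 and 3 of 11. Since gated cells of control 1 also carried macrophage markers, its share is read neither as detection beyond background nor as background. Cxcl1 had no UMI in knockout members, against 22.9 CPM in control 1 and 12.2 in the library labelled control 3, which is at least 6.34-fold and 3.37-fold lower than these when 3 UMIs over the group are taken as the floor.

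S100a9 had the lowest p of all, at 65.2 CPM in knockout 4, against 3.90 in control 1 and 3.56 in the library labelled control 3 (log2 fold change 4.13 ± 0.37). Of its 54 knockout UMIs, 43 came from 1 cell, and 10 cells held any. When the rule was applied after thinning to 4000 UMIs, the value turned to -2.34. The neutrophil markers, which include S100a9 itself and S100a8, summed to 456 CPM (378 UMIs) in knockout 4, against 288 and 298 in control 1 and the library labelled control 3. Their sum is thus not independent of this call, and a part of neutrophils in it was not tested. The cycling gene Mki67 had 14 of its 16 knockout UMIs in 1 cell. Over all 69 genes called higher, 5 had more than 50% of their knockout UMIs in 1 cell and 10 more than 25%. The levels of these genes came from few cells.

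Lsp1, which encodes an actin-binding protein of leukocytes, lies on the plus strand of chromosome 7 from 142460809 to 142494867. It was at 193 CPM in knockout 4, against 415 in control 1 and 507 in the library labelled control 3, and fell by 1.24 on the log2 scale (SE 0.19; adjusted p = 3.61e-06), with -1.08 against control 1 alone. It was the sole gene called in all 13 other settings, DESeq2 included. Rps29, a ribosomal protein gene, was at 2445 CPM in knockout 4, against 4013 and 4331, and fell by 0.75; it too has near-identical copies. The immediate-early genes Fos (-0.62), Nr4a1 (-0.84) and Egr1 (-1.24) fell, 3 of 23 tested, with a list median of -0.21; Nr4a1 and Egr1 were called in 3 of 13 other settings, and Nr4a1 had -0.54 without control 1. Cebpb, a transcription factor gene, was at 226 CPM in knockout 4, against 941 in control 1 and 296 in the library labelled control 3, a log2 fold change of -1.44 that rests on control 1: without that library the value was -0.36.

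Lyz2, whose locus carries Cre, was at 7299 CPM in knockout 4, against 16920 in control 1 and 10741 in the library labelled control 3, and fell by 0.91 on the log2 scale, with -0.53 when control 1 was left out. Commd10 itself was at 13.3 CPM (11 UMIs) in knockout 4, against 22.0 (96 UMIs) in control 1 and 13.5 (53 UMIs) in the library labelled control 3. The test gave -0.41 ± 0.46 on the log2 scale for Commd10 (adjusted p = 0.878), and -0.71 against control 1 alone. The COMMD, CCC and retriever list had 0 calls by edgeR among 14 genes, and Commd1 had 0.25 ± 0.20. Immunoglobulin genes Igkc, Igha and Jchain were called lower and rested on the 1 member of control 1 that held nearly all such UMIs.

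The remaining lists had few calls. Macrophage maturation genes had 1 higher (Mrc1, 1.11 ± 0.22, or 1.09 against control 1 alone) and 1 lower (Cx3cr1) among 20. Ly6Chi monocyte identity genes had 2 higher, the coagulation factor gene F10 and the matrix protein gene Thbs1 (0.87, or 0.55 without control 1), and 1 lower (Lyz2) among 18. Repair and growth factors had 3 higher among 27 (Spp1, the syndecan gene Sdc4 and Thbs1). Alarmin genes had 1 call among 11 (S100a9), complement 1 among 13 (Itgax) and cell cycle 1 among 11 (Mki67). The pattern recognition lectins Clec4n (696 CPM in knockout 4, against 275 in control 1 and 391 in the library labelled control 3) and Clec7a (730 CPM, against 374 and 381) rose outside these lists.

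The genotype effect in Gpnmb and Lpl positive cells was set against that in other cells by an interaction term, fitted by edgeR over 6 sums. Other cells had 27 genes called higher (0.186%) and 1 lower of 14548, and 11 genes were called higher in both populations. The effect differed for 139 of 13862 genes (1.00%), with 26 more positive and 113 more negative in members. The median difference over all genes was itself negative, at -0.09, and its part in the excess of negative calls was not tested. The 139 include 2 genes of the rule, Arg1 and Lpl, which are a description only. Cxcl10 was 2.39 log2 units more positive in members, where it was at 273 CPM in knockout 4 against 43.4 and 88.7 in the controls, while other cells had 81.5 CPM against 105 and 107. Pf4 was more negative by 1.55: members had 350 CPM in knockout 4, against 325 in control 1 and 387 in the library labelled control 3, and other cells 347 CPM, against 142 and 112. Pf4 was thus above both controls in other knockout cells and between them in members. The hypoxia-induced droplet gene Hilpda was at 89.3 CPM, against 64.7 and 40.7, in members and at 138 CPM, against 35.1 and 24.98, in other cells. The rule kept Arg1-high cells out of the members, and Arg1 in other cells was at 1557 CPM in knockout 4, against 400.2 in control 1 and 133 in the library labelled control 3; without the Arg1 limit 43 genes were more positive.

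**Figure D5:**
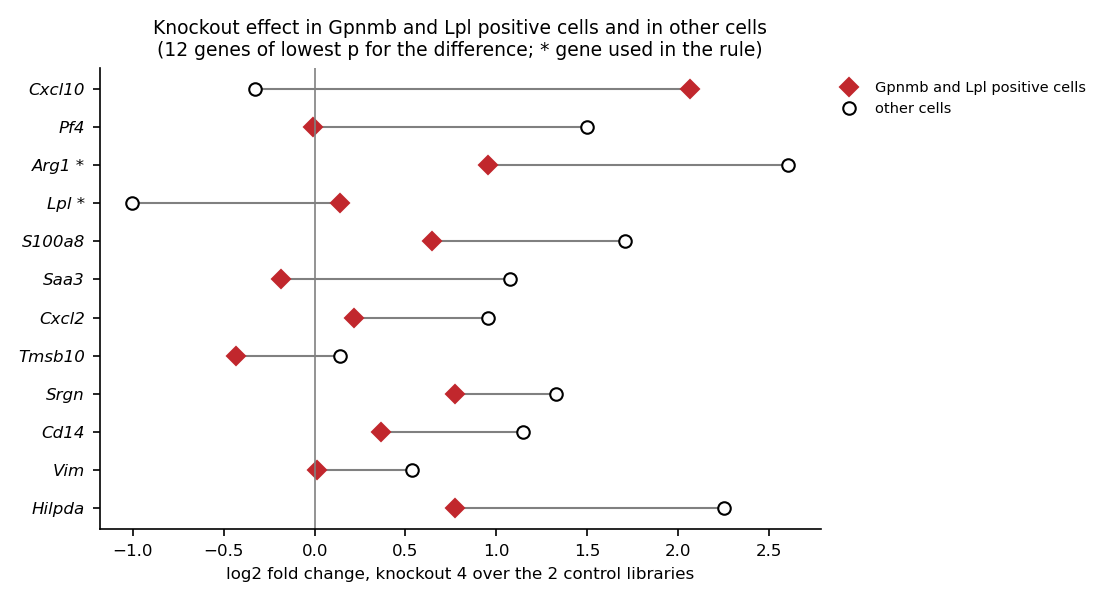
log2 fold change of knockout 4 over the 2 control libraries in Gpnmb and Lpl positive cells (filled) and in other cells (open), for the 12 genes of lowest p for the difference; asterisks mark genes of the rule, which are a description. Cxcl10 was at 2.07 in members and -0.33 in other cells, Pf4 at -0.01 and 1.50.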

How the data were processed

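The deposited values are unnormalized UMI counts, by gene and barcode, for 3 libraries; per the submitters' processing notes the authors made them with bcl2fastq and Cell Ranger 3.0.2 on GRCm38. The lowest deposited barcode held 500 UMIs in each library after a filter the sources used here do not give. Of 53802 gene rows, 53620 (99.7%) were found in GENCODE M21.

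Cells needed 500 or more detected genes and at most 10% mitochondrial UMIs, which left 4457 of 5152 barcodes in knockout 4, 4115 of 4814 in control 1 and 7449 of 8109 in the library labelled control 3. No doublet caller was run; members with more than 2 times the median UMIs of their library were 5.61%, 7.89% and 13.5% in that order. Counts were summed per library over members and compared by edgeR 4.0.16 in R 4.3.3 (TMM, filterByExpr, two-sided quasi-likelihood test, Benjamini-Hochberg threshold 0.05). There was 1 residual degree of freedom, from the 2 controls, to which moderation over all genes added 78.5 prior ones (common biological coefficient of variation 12.4%); knockout 4 has no replicate and is taken to vary as controls do. The interaction fit covered members and other cells of each library, with library as a term; it had 1 residual degree of freedom, infinite prior ones and a common biological coefficient of variation of 4.69%, on which its calls rest. Levels are CPM, a gene's UMIs over all UMIs of the summed cells, times 1e6; ratios of members over other cells are log2((CPM + 1)/(CPM + 1)). Shares carry exact Clopper-Pearson 95% intervals (scipy 1.17.1), which cover counting error only, and shares of cells with a UMI were taken after thinning each cell to 4000 UMIs. Lymphocyte-gated cells carried 3 or more T cell or B cell markers and numbered 16, 29 and 29.

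On simulated counts, with 200 genes over 50 CPM changed in each of 5 runs, the member fit of 10347 genes found 59.8% of changes of 1 log2 unit and 99% of changes of 2, with 4.11% false among its calls. These counts were drawn with the fit's own spread and with knockout 4 varying as the controls do. They check the code and do not measure the false share among the calls reported here. DESeq2 1.42.0, library totals, no filter on low counts, other limits of the rule, thinning, and leaving out each control were tried as alternatives. Members, gene lists and named genes were chosen with earlier results of these data known. Named genes are those of the rule and markers, the 15 of lowest adjusted p in each direction, up to 4 of lowest p and those at 500 CPM or more in each of 20 fixed lists, and the 25 highest and 15 lowest ratios of members over other cells among genes at 50 CPM or more; 2 genes covered by these rules are not reported here. Lsp1, Cd274 and Rps29 were singled out for being called in every edgeR setting, and genes quoted only by a ratio come from the lists and were chosen after their values were seen. No table of cell types was used.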

Additional observations from a re-analysis of the deposited data

Results flagged for a closer look

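The genotype effect in Gpnmb and Lpl positive cells differed from that in other cells for these genes, each by the interaction term of edgeR's quasi-likelihood fit. Of the 12 genes of lowest p for this difference, 2 (Arg1 and Lpl) belong to the rule and are left as a description. Cxcl10 was 2.39 log2 units more positive in members (2.93 against control 1 alone), and 136 of its 226 knockout UMIs lay in 1 cell. Pf4 was 1.55 units more negative (value -1.55, and -1.26 against control 1 alone). The rule placed Arg1-high cells among the other cells. Those left out for Arg1 alone had more Pf4 than members in each library, as given above. The part of the Arg1 limit in the Pf4 difference was not tested. S100a8 had -1.20 and was -0.68 against control 1 alone, and 163 of its 214 knockout UMIs in members lay in 1 cell. Hilpda had -1.50, with -1.59 against control 1 alone, and was called in 11 of 13 other settings.

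Saa3, an acute phase gene, was at 167 CPM in knockout 4, against 192 in control 1 and 191 in the library labelled control 3, in members, and at 255 CPM, against 118 and 132, in other cells; the difference was -1.30. Cd14, the lipopolysaccharide co-receptor gene, had -0.84, and was at 560 CPM, against 422 and 458, in members and 852 CPM, against 341 and 454, in other cells. Cxcl2 had -0.75. The cytoskeletal genes Tmsb10 and Vim had -0.59 and -0.56, and the proteoglycan gene Srgn had -0.59. Saa3, Cd14, Cxcl2, Tmsb10 and Vim were called in all 13 other settings, and Srgn in 12. In each of these 6 genes the value against control 1 alone kept its sign, between -1.39 for Saa3 and -0.49 for Srgn. Groups of 1 and 2 libraries are too small for a search for samples that stand apart.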

How the results depend on the processing

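The share kept its direction under every setting tried, between -2.47 percentage points without control 1 and -8.07 without the library labelled control 3. The 69 genes called higher in knockout members became 2 by DESeq2, 12 with each cell thinned to 4000 UMIs, 9 with the rule applied after thinning, 34 with no class II limit, 39 at 5% mitochondrial UMIs and 26 without barcodes found in another library. The 36 called lower became 1, 3, 5, 7, 17 and 7 under the same settings, 14 and 18 with at least 1 or 3 Lpl UMIs, and 11 with no Arg1 limit. Beside these counts, the estimated prior degrees of freedom were 78.5 in the fit as reported, 18.1 without barcodes found in another library and 10.1 with no Arg1 limit, and without the 1 member rich in immunoglobulin they were infinite, with 87 genes higher and 43 lower. Of the difference between populations, the 26 more positive became 2 by DESeq2, 6 thinned, 16 with the rule applied after thinning and 43 with no Arg1 limit. The 113 more negative became 11, 28 and 59 under the first 3 of these, 75 with library totals and 49 without cells over 2 times the median UMI count. Over 30 named genes and 445 values, 332 kept direction and call, 108 lost the call, 3 moved and 2 reversed: S100a9 to -2.34 and Ifitm1 to -0.36, both with the rule applied after thinning. The cause of these changes was not tested. The settings on immunoglobulin, shared barcodes and the rule after thinning were chosen after seeing the data. With a control left out, 1 library stands against 1 and has no test. No paired analysis was possible because the knockout library's number is shared with neither control. The 11 Commd10 UMIs in knockout members limit what its level can show.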
